A study of Mus musculus with 2 samples.

Results

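The 10 genes described here encode the enzymes that write, maintain and oxidise cytosine methylation (Dnmt1, Uhrf1, Dnmt3a, Dnmt3b, Tet1, Tet2 and Tet3) and the catalytic and core subunits of Polycomb repressive complex 2 (Ezh2, Ezh1 and Suz12). They were taken by symbol, and all 10 were found among the 24346 symbols listed for each library. The data were bulk RNA-seq of GFP+CD4+ cells, the regulatory T cells (Tregs) of Foxp3-DTR-GFP (FDG) mice, in which the diphtheria toxin receptor and GFP are expressed under the control of Foxp3, the transcription factor of Tregs. Tregs were sorted from the spleen and from the lung of FDG mice aged 10 to 16 weeks on day 15 after intratracheal bleomycin (BLM), a drug that injures the lung and is followed by fibrosis. The cells of 3 mice were pooled, giving 1 library of splenic Tregs and 1 library of lung Tregs. Both libraries carried the same allele and came from mice given BLM. No library from mice without BLM was analysed here. Each difference below is therefore one between organs of mice given BLM, in which organ and a local effect of BLM cannot be told apart.

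DNA methylation is copied to the new strand after replication by Dnmt1, which is brought to hemimethylated CpG sites by Uhrf1, while Dnmt3a and Dnmt3b methylate sites that carried no mark. Tet enzymes oxidise 5-methylcytosine and so open the way to its removal. Polycomb repressive complex 2 (PRC2) methylates lysine 27 of histone H3, with Ezh2 or its paralogue Ezh1 as the catalytic subunit and Suz12 and Eed as the core partners it needs. In Tregs, stable Foxp3 expression goes with demethylation of an intronic element of the Foxp3 locus, and Ezh2 is known to be induced when T cells are activated.

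Levels were given as FPKM, which is scaled to transcript length, and genes were set side by side on that scale. The ratio of lung to spleen still differed with transcript length, as given below, and error in the lengths themselves was not counted. A difference between the organs was the log2 ratio of the lung value to the splenic value, after values under 0.1 FPKM had been set to 0.1, and a gene was counted as higher or lower when it passed 2-fold. Among the 12094 genes that reached 1 FPKM in at least 1 library, 2149 (17.8%) were over 2-fold higher and 1872 (15.5%) over 2-fold lower in lung Tregs, and the median log2 ratio was 0.03. Each organ had 1 library, so the variation between mice is unknown and nothing was tested for significance. The intervals below are 95% intervals for estimated reads, and they cover counting error only.

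On the deposited scale the T cell markers were present at similar levels in both libraries, while markers of other cells differed. The 9 T cell markers listed, such as the CD3 chains and Cd4, all lay within 2-fold and had sums of 4142 FPKM (spleen) and 4055 FPKM (lung). Their median log2 ratio of -0.13 became -0.56 with both libraries rescaled to equal sums (TPM) and -0.31 with equal upper quartiles. The most abundant were Cd3g (902 and 1103 FPKM), Cd2, an adhesion receptor (912 and 977 FPKM), and Lck, the kinase of T cell receptor signalling (823 and 654 FPKM). Foxp3 was 18.7 FPKM in the splenic library and 41.8 FPKM in the lung library. All 12 macrophage markers exceeded 1 FPKM in both libraries and 9 were over 2-fold higher in lung. Their sum was 948 FPKM (spleen) and 35716 FPKM (lung), most of it from Lyz2, the lysozyme of macrophages. Lyz2 was the highest gene of the lung library at 24947 FPKM. The receptors Csf1r (43.8 and 50.1 FPKM), Adgre1 (14.6 and 24.3 FPKM) and Mrc1 (7.64 and 9.41 FPKM) lay within 2-fold. The sum of 8 lung epithelial markers, of which 7 were over 2-fold higher and Epcam was lower, went from 11.0 to 3135 FPKM, with Sftpc listed at 0 in spleen, and that of 8 fibroblast markers, of which the 6 that reached 1 FPKM were higher, from 1.15 to 197 FPKM, with Col3a1 and Mgp listed at 0 in spleen. In the other direction, 8 of 8 B cell markers were below their splenic value (48.5% of all genes were), with sums of 262 and 138 FPKM. Of the 7 that reached 1 FPKM, 3 were over 2-fold lower (15.5% of all genes were). Ebf1 was nearly equal at 2.76 and 2.70 FPKM. Exocrine pancreas markers were over 2-fold lower in 8 of 8, with sums of 178 and 0.128 FPKM and 6 of the 8 listed at 0 in lung. The part of these other cells in the values of the 10 genes was not tested, and in bulk RNA fewer cells of a type and less RNA per cell cannot be told apart.

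None of the 10 genes was over 2-fold higher in lung Tregs, and 2 were over 2-fold lower, the de novo methyltransferase Dnmt3b and the PRC2 methyltransferase Ezh2. The other 8 lay within 2-fold. The lung value was below the splenic value for 8 of 10 genes, against 48.5% of all genes, and the median log2 ratio of the 10 was -0.58, with quartiles of -0.77 and -0.33 against -0.60 and 0.66 for all genes. The 2 lower genes of 10 compare with 15.5% of all genes. The study used a threshold of 20-fold for genes higher in lung Tregs. Applied here to lower genes, with the floor of 0.1 FPKM, it was passed only by Dnmt3b among the 10. Of all those counted, 284 genes (2.35%) passed it.

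**Figure D1:**
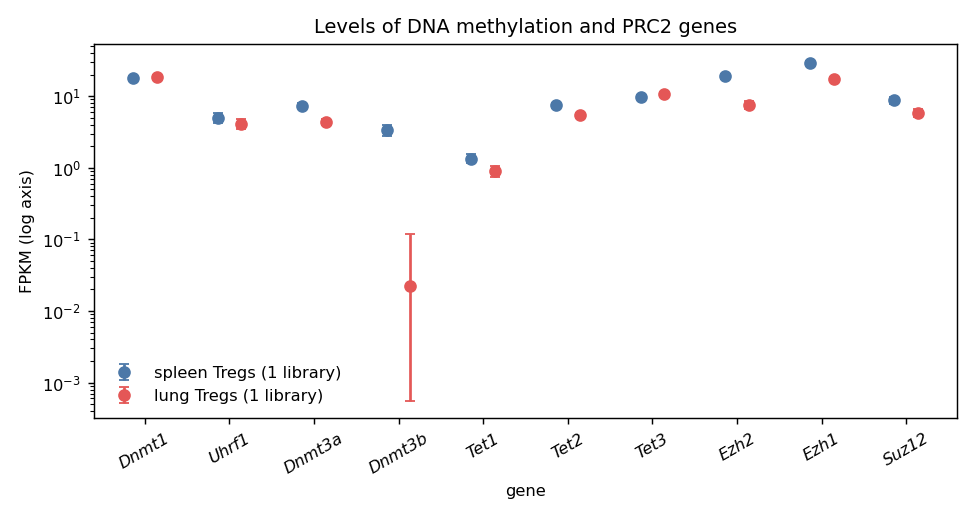
FPKM of each gene (log axis) in the library of splenic Tregs and in the library of lung Tregs. Points are the single library of each organ and bars are 95% intervals for estimated reads, which cover counting error only; Dnmt3b went from 3.33 FPKM in spleen to 0.0226 FPKM in lung, while Dnmt1 and Tet3 each had nearly the same value in both libraries.

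The maintenance pair differed little between the organs on the deposited scale. Dnmt1, which copies methylation after replication (chromosome 9, 20907206 to 20959888, minus strand, GRCm38.p6 as for all positions given here), was 17.8 FPKM in spleen and 18.7 FPKM in lung, from about 950 and 1135 reads. The ratio of lung to spleen was 1.05, with a counting interval of 0.965 to 1.15 that includes 1. Uhrf1, the reader that brings Dnmt1 to hemimethylated sites (chromosome 17, 56303337 to 56323486, plus strand), was 4.97 FPKM in spleen against 4.07 FPKM in lung, a ratio of 0.820 with an interval of 0.653 to 1.02 that again includes 1. The log2 ratio of Uhrf1, -0.29 as deposited, was -0.72 with both libraries rescaled to equal sums (TPM) and -0.46 with equal upper quartiles. Within a library, where the scaling of the library cancels, Uhrf1 was 0.280 of Dnmt1 in spleen (interval 0.236 to 0.330) and 0.218 in lung (0.183 to 0.258), so these intervals overlapped.

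The de novo enzymes were both below their splenic value in lung Tregs, by very different amounts. Dnmt3a (chromosome 12, 3801559 to 3914443, plus strand) was 7.38 FPKM in spleen and 4.32 FPKM in lung, a 1.71-fold lower value with a counting interval of 1.51 to 1.93, which stayed within the threshold of 2-fold. Its reads are uncertain because its 3 annotated lengths run from 5424 to 9685 nt, which puts them between 399 and 725 in spleen and between 265 and 482 in lung. Dnmt3b was 3.33 FPKM in spleen, from about 135 reads, and 0.0226 FPKM in lung, which corresponds to about 1 read. The lung value is under the floor of 0.1 FPKM, and Dnmt3b was 33.3-fold lower with the floor and 147-fold lower without it. Without the floor the lung level was 0.00680 of the splenic level, with a counting interval of 0.000164 to 0.0370, so the size of the difference is hardly fixed although both ends lay beyond 20-fold. Passing 20-fold also depends on the floor, since the log2 ratio of Dnmt3b was -1.73 with a floor of 1 FPKM. Dnmt3b thus made 0.451 of the level of Dnmt3a in splenic Tregs and 0.00524 in lung Tregs (interval 0.000132 to 0.0294). Dnmt1 over Dnmt3a was 2.41 in spleen (2.18 to 2.66) and 4.33 in lung (3.87 to 4.85), intervals that did not overlap.

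The low lung value placed Dnmt3b at the edge of the distribution, since only 1.35% of the genes counted had a lower log2 ratio. Its mean level fell in a range where ratios are spread widely, and among the 2937 genes with a mean of 1 to 5 FPKM the quartiles of the log2 ratio were -1.04 and 1.33 and 25.6% were over 2-fold lower. Exocrine pancreas markers and, to a smaller degree, B cell markers, given above, also had lower values in lung. The part of these cells in the value of Dnmt3b was not tested. No other gene of the annotation overlaps Dnmt3b, which lies on chromosome 2 from 153649411 to 153687730 (plus strand, GRCm38.p6).

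Among the Tet dioxygenases, Tet3 was the highest in both libraries and Tet1 the lowest. Tet3 (chromosome 6, 83362373 to 83457208, minus strand) was 9.72 FPKM in spleen and 10.8 FPKM in lung, a ratio of 1.11 with an interval of 1.02 to 1.20. Tet2, often mutated in blood cancers (chromosome 3, 133463677 to 133545136, minus strand), was 7.48 FPKM in spleen and 5.40 FPKM in lung, a 1.39-fold lower value (1.24 to 1.55). Tet1 (chromosome 10, 62804570 to 62887469, minus strand) was 1.33 FPKM in spleen and 0.894 FPKM in lung, a 1.49-fold lower value (1.20 to 1.86). None of these passed 2-fold. Within a library, Tet2 over Tet3 was 0.770 in spleen (0.699 to 0.848) and 0.501 in lung (0.454 to 0.553), and Tet1 over Tet3 was 0.137 (0.117 to 0.160) and 0.0830 (0.0696 to 0.0985). The balance of the family was therefore more toward Tet3 in the lung library, in ratios that do not depend on how the libraries were scaled.

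All 3 PRC2 genes were below their splenic value in lung Tregs, and Ezh2 was the one that passed 2-fold. Ezh2 (chromosome 6, 47530274 to 47595270, minus strand) was 18.9 FPKM in spleen and 7.52 FPKM in lung, from about 504 and 228 reads, a 2.52-fold lower value with a counting interval of 2.14 to 2.95. Ezh1, its paralogue and the form usually found in resting cells (chromosome 11, 101191115 to 101226463, minus strand), was 29.3 FPKM in spleen and 17.3 FPKM in lung, a 1.69-fold lower value (1.55 to 1.85). Suz12, the core subunit (chromosome 11, 79993106 to 80034123, plus strand), was 8.73 FPKM in spleen and 5.81 FPKM in lung, a ratio of lung to spleen of 0.665 (0.567 to 0.777). Ezh1 was above Ezh2 in both libraries, and Ezh2 over Ezh1 was 0.646 in spleen (0.581 to 0.717) and 0.435 in lung (0.374 to 0.504). Ezh2 over Suz12 was 2.17 in spleen (1.89 to 2.48) and 1.29 in lung (1.08 to 1.55).

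Neither Eed nor any of 16 proliferation markers was over 2-fold lower in lung on the deposited scale, although under TPM, which rescales both libraries to equal sums, Mcm7 was. Eed, the core subunit that binds the methylated histone, was 52.6 and 56.6 FPKM, and Ezh2 over Eed was 0.360 in spleen (0.323 to 0.401) and 0.133 in lung (0.115 to 0.153). Of the proliferation markers, 4 were over 2-fold higher (17.8% of all genes were) and 12 lay within 2-fold, with a median log2 ratio of 0.32. Under TPM the median turned to -0.12, and 2 (Tyms and E2f1) were higher, against 1445 of 11887 genes. On that scale 1 marker was lower, against 26.4% of all genes. The macrophage, epithelial and fibroblast markers were higher in the same library, and their part in the levels of the proliferation markers was not tested. The 4 were E2f1, a transcription factor of the G1 to S transition (1.70 and 5.74 FPKM), Tyms, the thymidylate synthase (6.10 and 17.5 FPKM), Birc5, the mitotic protein survivin (10.7 and 25.6 FPKM), and Ccnb1, the mitotic cyclin B1 (5.40 and 11.0 FPKM). Mcm6, a subunit of the replicative helicase and the highest of the list, was 78.2 FPKM in spleen and 89.5 FPKM in lung, followed by mean level over both libraries by Mcm4 (38.9 and 34.7 FPKM) and Mcm7 (33.9 and 21.3 FPKM). Ezh2 over Mcm6 was 0.242 in spleen (0.220 to 0.266) and 0.0840 in lung (0.0732 to 0.0961). This ratio was taken for Mcm6 alone, which lay above its splenic value. On the deposited scale 11 of the 16 markers lay above and 5 below their splenic value (48.5% of all genes lay below).

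**Figure D2:**
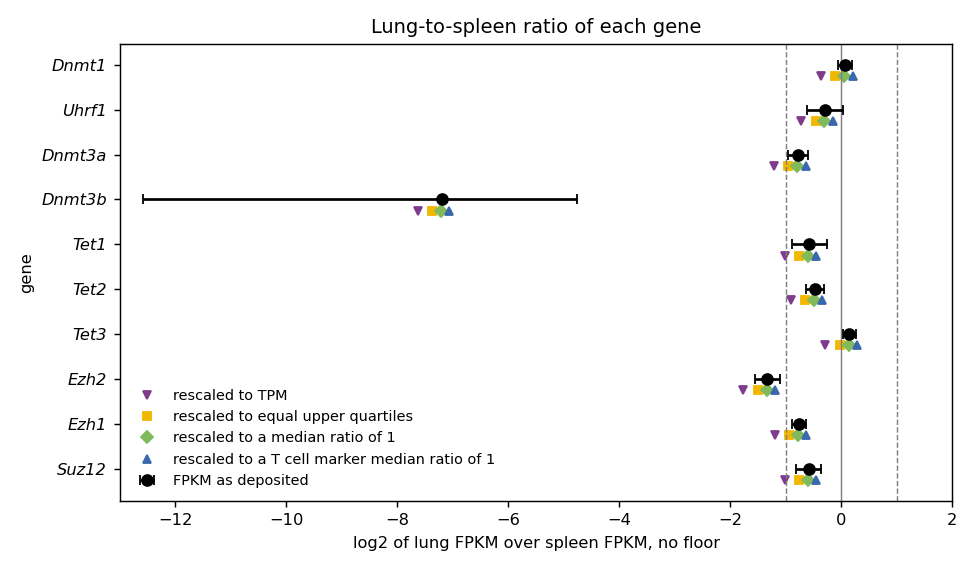
log2 ratio of lung to spleen FPKM without a floor for each gene. Black points and bars are the deposited FPKM with 95% counting intervals, coloured symbols the same ratio under 4 rescalings of the lung library, and dashed lines mark 2-fold; Ezh2 and Dnmt3b lie beyond 2-fold under each, while Dnmt1 and Tet3 change sign under TPM and equal upper quartiles.

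The windows around the RefSeq starts of the genes that passed 2-fold, and of Ezh1 as the paralogue of Ezh2 that did not, are printed here to let their CpG content be compared. Each runs from 250 bases before to 50 bases from the start, 5′ to 3′ on the strand of the gene, and capitals mark the CG dinucleotides. They are RefSeq sequences of GRCm38.p6, Dnmt3b from chr2:153649199-153649498 (plus strand), Ezh2 from chr6:47594981-47595280 (minus strand) and Ezh1 from chr11:101226414-101226713 (minus strand).
Dnmt3b: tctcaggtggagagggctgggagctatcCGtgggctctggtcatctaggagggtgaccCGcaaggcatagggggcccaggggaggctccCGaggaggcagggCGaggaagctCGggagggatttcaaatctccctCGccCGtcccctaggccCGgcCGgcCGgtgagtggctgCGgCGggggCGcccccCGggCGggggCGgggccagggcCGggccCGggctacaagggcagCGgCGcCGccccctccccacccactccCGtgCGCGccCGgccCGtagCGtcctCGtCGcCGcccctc
Ezh2: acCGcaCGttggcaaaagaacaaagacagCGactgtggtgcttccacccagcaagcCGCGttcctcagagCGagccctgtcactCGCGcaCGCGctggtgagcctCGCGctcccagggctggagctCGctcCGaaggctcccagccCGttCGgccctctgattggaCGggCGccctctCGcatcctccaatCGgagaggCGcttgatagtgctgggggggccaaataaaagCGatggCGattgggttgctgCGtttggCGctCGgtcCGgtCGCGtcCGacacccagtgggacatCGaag
Ezh1: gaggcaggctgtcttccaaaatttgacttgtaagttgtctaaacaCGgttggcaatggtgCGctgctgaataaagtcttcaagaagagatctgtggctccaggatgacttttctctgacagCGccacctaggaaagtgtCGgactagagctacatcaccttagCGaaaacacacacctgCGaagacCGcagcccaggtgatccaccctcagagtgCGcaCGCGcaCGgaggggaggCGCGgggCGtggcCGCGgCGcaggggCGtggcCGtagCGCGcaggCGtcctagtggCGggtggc
The window of Dnmt3b held 30 CG dinucleotides and 76% G and C, that of Ezh2 31 and 64.3%, and that of Ezh1 23 and 59.3%, against medians of 7 and 52.7% over all 32851 windows of the table. A high CG content was not limited to the genes that passed 2-fold, since the windows of Tet2 (57), Suz12 (41) and Tet3 (22) also held more CG than the upper quartile of 20 of all windows. The letters TTTGGCGC and TTTCGCGC, which match sites of E2F factors, were searched on both strands. Among the 3 windows shown, only that of Ezh2 held a match, TTTGGCGC at position 254 counted from its 5′ end. At least 1 match was found in 267 of all windows (0.813%), and among the other genes also in 1 of 3 windows of Dnmt1 and in 1 of 2 windows of Uhrf1. A match describes the letters and is not a measured binding site.

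Within each library the order of the genes was similar, with a few changes of place. In splenic Tregs Ezh1 was the highest, followed by Ezh2 and Dnmt1, whose counting intervals overlapped. Tet3, Suz12, Tet2 and Dnmt3a came next, each overlapping its neighbour, and then Uhrf1, Dnmt3b and Tet1, which were separated. In lung Tregs Dnmt1 and Ezh1 led with overlapping intervals, followed by Tet3, Ezh2, and then Suz12 and Tet2, which overlapped. Dnmt3a and Uhrf1 overlapped below them, and Tet1 and Dnmt3b closed the order. Ezh2 moved from the place beside Dnmt1 to below Tet3, and Ezh2 over Dnmt1 was 1.06 in spleen (0.954 to 1.19) and 0.402 in lung (0.347 to 0.464).

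**Figure D3:**
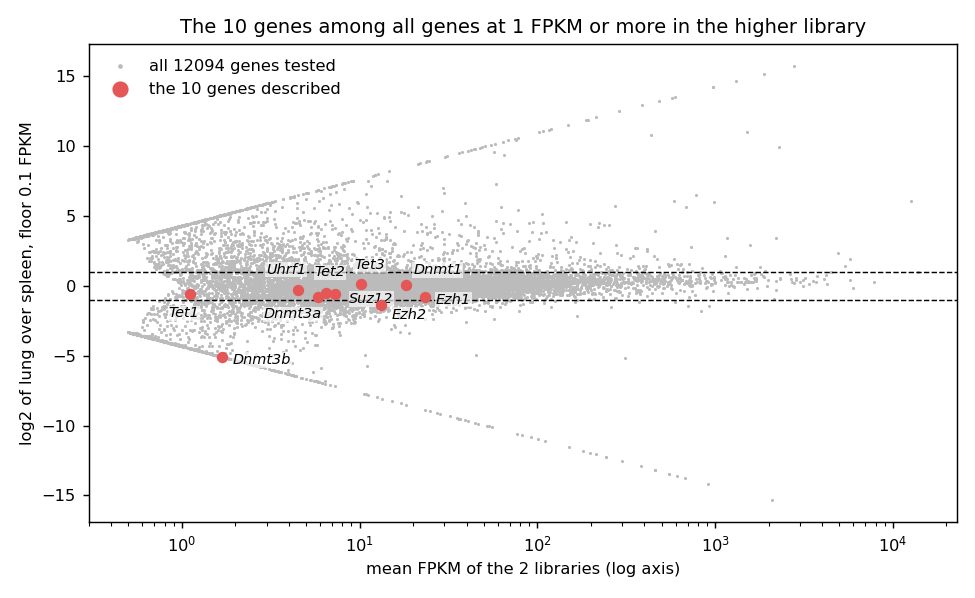
log2 ratio of lung to spleen (floor of 0.1 FPKM) against the mean FPKM of the 2 libraries (log axis) for the 12094 genes counted, with the 10 genes named and dashed lines at 2-fold. Dnmt3b lies on the lower edge that the floor draws, and Ezh2 lies just beyond the lower line.

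The ratio of lung to spleen also differed with transcript length. The median log2 ratio of all genes was 0.34 for transcripts under 2000 nt, -0.06 from 2000 to 4000 nt, -0.19 from 4000 to 6000 nt, -0.29 from 6000 to 9000 nt and -0.20 at 9000 nt or more. The shortest transcript of the 10 genes had 2775 nt, so each belongs to a class whose median was below 0. Dnmt3a (-0.77), Ezh1 (-0.76) and Suz12 (-0.59) stood below the median of their class by less than Ezh2 (-1.33), while Dnmt1 (0.07) and Tet3 (0.15) stood above it. The share of genes over 2-fold lower was 17.5% from 2000 to 4000 nt, the class of Ezh2, and 17.6% from 4000 to 6000 nt, the class of Dnmt3b. The part of transcript length in the values of the 10 genes was not tested.

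**Figure D4:**
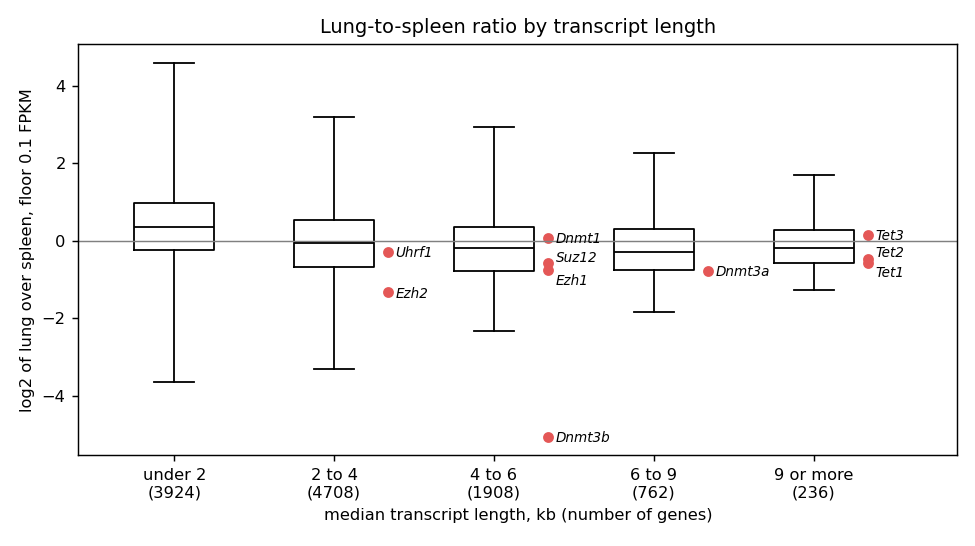
log2 ratio of lung to spleen (floor of 0.1 FPKM) by median transcript length, for all genes counted that have a length. Boxes give the quartiles and median of all genes, whiskers the middle 90%, and red points the 10 genes in their class; medians of classes from 2 kb upward are below 0, and Dnmt3b is far below the box of its class.

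The partners of these enzymes were taken from 6 lists of 64 genes, of which 57 reached 1 FPKM. Of these, 4 were over 2-fold higher (17.8% of all genes were), 10 were over 2-fold lower (15.5% of all genes), and 43 lay within 2-fold, with a median log2 ratio of -0.12.

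Among 8 PRC2 cofactors counted, none was higher and 2 were lower, with a median of -0.22. Jarid2, which helps to bring PRC2 to chromatin, was 14.1 FPKM in spleen against 4.12 FPKM in lung, and Epop, a PRC2-binding protein listed under the older symbol E130012A19Rik, was 2.64 and 1.12 FPKM. The most abundant were the histone-binding subunits Rbbp7 (135 and 176 FPKM) and Rbbp4 (67.0 and 48.1 FPKM) together with Eed, all within 2-fold. Phf19 and Ezhip did not reach 1 FPKM in either library.

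PRC1, the complex that places ubiquitin on histone H2A, had 4 lower and no higher genes among 18 counted, with a median of -0.14. The lower ones were Bmi1, a RING finger partner of the ligase (15.8 and 4.97 FPKM), Cbx6 (5.76 and 1.83 FPKM) and Cbx7 (80.7 and 36.6 FPKM), chromodomain proteins of the family that reads the PRC2 mark, and Pcgf6, a paralogue of Bmi1 (16.03 and 6.88 FPKM). The ligase Rnf2 was 39.9 and 33.3 FPKM, and Yaf2, another subunit, was 31.9 and 41.5 FPKM. Cbx7 was the most abundant of the list in spleen and Yaf2 in lung.

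Of 5 genes that remove the marks of PRC2 and PRC1 or act with the removing enzymes, 2 were lower, with a median of -0.74. Bap1, a deubiquitinase of histone H2A, was 38.3 FPKM in spleen against 15.4 FPKM in lung, and its partner Asxl1 was 21.3 and 9.33 FPKM. The lysine 27 demethylase Kdm6a was 17.2 and 10.3 FPKM. Ezh2 over Kdm6a was 1.10 in spleen (0.984 to 1.22) and 0.726 in lung (0.623 to 0.845), so the methyltransferase and this demethylase did not move by the same factor.

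The partners of DNA methylation had 2 higher and no lower genes among 8 counted, with a median of -0.05. Hells, a chromatin remodeller needed for DNA methylation, was 4.53 FPKM in spleen and 10.3 FPKM in lung. Dppa3, which can hold Uhrf1 away from chromatin, was 0.791 and 7.38 FPKM, from about 5 and 54 reads. Pcna, the replication clamp, was the most abundant (117 and 90.3 FPKM), followed by Trim28, a corepressor (45.2 and 26.7 FPKM), and Uhrf2, the paralogue of Uhrf1 (24.4 and 29.3 FPKM). Dnmt3l, the cofactor of the de novo enzymes in germ cells, was listed at 0 in both libraries.

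Of 9 genes counted among methyl-CpG readers and members of their families, Mbd1 was lower (19.0 and 5.59 FPKM) and none was higher. The median of 0.04 was below 0 under TPM (-0.39) and equal upper quartiles (-0.14). Mbd2 (65.8 and 73.8 FPKM) and Mbd3 (58.3 and 47.5 FPKM), subunits of the NuRD corepressor, were the most abundant. Among 9 genes of the removal of oxidised bases and the supply of cofactors, 2 were higher and 1 lower, with a median of 0.06 that was also below 0 under TPM (-0.38) and equal upper quartiles (-0.12). Idh1, the cytosolic enzyme that makes the 2-oxoglutarate used by Tet enzymes, was 13.6 FPKM in spleen and 80.4 FPKM in lung, a 5.90-fold higher value, and the DNA glycosylase Neil1 was 13.7 and 28.5 FPKM. Cxxc5, a CXXC-domain protein that binds CpG-rich DNA, was 3.27 and 1.28 FPKM. Mat2a, which makes the methyl donor S-adenosylmethionine, was the most abundant in both libraries (146 and 109 FPKM). Ogt, which binds Tet proteins, was 72.5 and 75.4 FPKM. The macrophage, epithelial and fibroblast markers were also higher in the lung library, and their part in the higher values of Idh1, Neil1, Dppa3 and Hells was not tested. Idh1 and Dppa3 were over 2-fold higher under TPM too, while Neil1 and Hells were not.

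**Figure D5:**
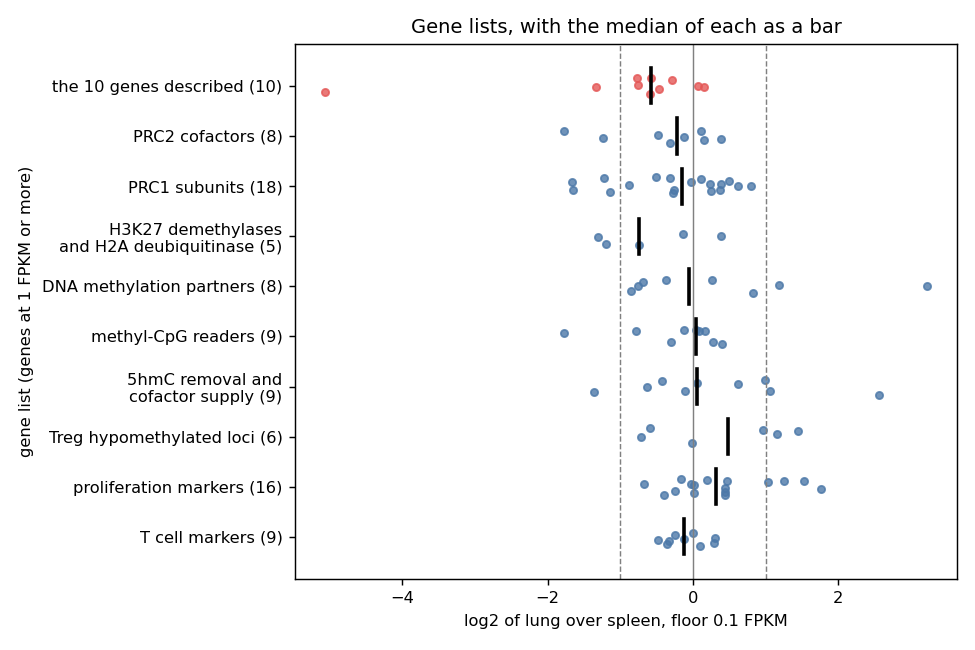
log2 ratio of lung to spleen (floor of 0.1 FPKM) for the 10 genes, the 6 lists of partners and 3 lists of Treg, proliferation and T cell genes. Each point is 1 gene that reached 1 FPKM in either library, bars are medians, dashed lines mark 2-fold and the number of genes is in brackets; the medians run from -0.74 to 0.48.

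Of 6 Treg loci known to be hypomethylated in Tregs, 2 were over 2-fold higher (17.8% of all genes were) and none lower, with a median log2 ratio of 0.48. Under TPM the median was 0.05, Ctla4 alone was higher, and Il2ra and Ikzf4 were lower. The higher genes on the deposited scale were Foxp3 and the inhibitory receptor Ctla4 (221 and 601 FPKM). Tnfrsf18, the receptor GITR, was the most abundant (470 and 919 FPKM), and Il2ra, the high-affinity chain of the receptor for interleukin 2, was 89.4 and 59.1 FPKM. Of 14 genes that PRC2 keeps silent in many cell types, 9 were listed at 0 in both libraries. The single one above 1 FPKM was Cdkn2b, an inhibitor of cyclin-dependent kinases, at 0.570 FPKM in spleen and 4.02 FPKM in lung, from about 7 and 56 reads. The macrophage, epithelial and fibroblast markers were higher in lung as well, and their part in the value of Cdkn2b was not tested. Next by mean level were the homeobox genes Hoxb4 (0.164 and 0.216 FPKM) and Hoxd9 (listed at 0 in spleen, 0.359 FPKM in lung). Of 12 germline genes that DNA methylation keeps silent, 7 were listed at 0 in both libraries and none reached 1 FPKM, the highest being Dazl (0.428 and 0.314 FPKM), Brdt (0.0643 and 0.123 FPKM) and Mael (0.0721 FPKM in spleen, listed at 0 in lung).

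The scaling of the libraries bears on the genes near the threshold. The deposited FPKM summed to 599633 in spleen and 808853 in lung, and rescaling both to equal sums (TPM) shifted the log2 ratio by -0.43 for genes whose values the floor does not touch. Dnmt3b, whose lung value is under the floor, kept its floored ratio of -5.06. On that scale 6 of the 10 genes were over 2-fold lower, with Dnmt3a, Tet1, Ezh1 and Suz12 added to Dnmt3b and Ezh2, against 26.4% of all genes, and the share of higher genes among those past 2-fold fell from 53.4% to 31.6%. Dnmt1 (-0.36) and Tet3 (-0.28) were then below their splenic values. Ezh2 and Dnmt3b were over 2-fold lower on every scale tried. MicroRNA or long non-coding RNA genes overlap the span of 5 of the 10, Dnmt1, Dnmt3a, Tet1, Tet3 and Ezh2, and in libraries that do not keep the strand their reads cannot be told apart where exons coincide.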

How the data were processed

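RNA-seq libraries of splenic and lung Tregs, 1 for each organ and each from 3 pooled mice, were assigned by their labels. cDNA came from SMART-Seq HT, which amplifies by PCR without molecular identifiers. The deposited values are FPKM, which the authors computed with Cuffdiff 2.2.1 from reads mapped to mm10 with TopHat2 2.1.1, Bowtie2 2.2.8 and SAMtools 0.1.18, per the submitters' processing notes. The annotation and the options of Cuffdiff are not given in the sources used here.

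Values under 0.1 FPKM were set to 0.1, lung was divided by spleen, and genes past 2-fold were counted among those reaching 1 FPKM in either library. No test was made, since 1 library a group allows none. Reads behind each FPKM were estimated from the step of low values over 10703 genes with a single RefSeq-tied transcript length of at least 1500 nt, with Cuffdiff's default fragment length (mean 200, SD 80). At 1 kb, 1 read was worth 0.0964 FPKM (spleen) and 0.0849 FPKM (lung), and 74.6% and 76.9% of genes with 1 to 10 reads lay within 0.1 of a whole number. Total depth is not known. Intervals were exact binomial or Poisson at 95%. They cover counting error only.

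All 10 genes were named, and from each list, other than those of other chromatin regulators, the genes past 2-fold (at most 6) and the 3 of highest mean FPKM. From the 6 lists of other chromatin regulators the genes past 2-fold were named, while most abundant genes within 2-fold were not. For markers of other cells only examples are named. Genes of like pattern were not sought, since 2 libraries give 1 ratio a gene. The 10 genes and the lists were chosen with earlier results of these data known. Alternatives were other floors, pseudocounts, folds, minimums and 4 rescalings. Lists of other chromatin regulators and a floor of 3 estimated reads were added after the values had been seen. The read step and the fold calls were tested on Poisson counts simulated under the same length model. That simulation held no PCR duplicates, length bias or RNA of other cells, and the intervals were not tested. Positions and sequences came from RefSeq (GRCm38.p6), in which all 10 genes were matched. Values were computed in Python 3.11.15 with pandas 2.3.3, numpy 2.4.6 and scipy 1.17.1, and plotted with matplotlib 3.10.9.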

Additional observations from a re-analysis of the deposited data

How the results depend on the processing

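With 1 library for each organ, variation between mice was not measured, and the read numbers, which are estimates, limit Dnmt3b most. Dnmt3b and Ezh2 were over 2-fold lower under each floor, pseudocount and rescaling tried. The log2 ratio of Dnmt3b was -1.73 with a floor of 1 FPKM, -2.08 with a pseudocount of 1 FPKM and -5.68 with the later floor of 3 estimated reads. Of the log2 ratios of single genes under all such settings, 73 stayed within the counting interval of the deposited value and 17 did not, and of the list medians, which were computed for the 4 rescalings alone, 24 stayed within 0.1 of the deposited value and 60 did not.

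The median log2 ratio of the 10 genes was -1.01 after rescaling to TPM, -0.76 after equal upper quartiles, -0.45 after setting the T cell marker median to 1 and -0.46 with a pseudocount of 1 FPKM. Of the 10, 6 were lower under TPM, 5 at 1.5-fold and 1 at 4-fold. Over all genes, 3133 of 11887 (26.4%) were lower under TPM, and of 12094 genes 3070 were lower at 1.5-fold and 847 at 4-fold. With no minimum 2850 were lower, and with a minimum of 5 FPKM 1037, settings that change how many genes are counted. At 1.5-fold 3311 were higher, at 4-fold 1212 and with the minimum of 5 FPKM 1192. In the 6 lists of partners, with 57 genes counted, 17 were lower under TPM, 17 at 1.5-fold and 0 at 4-fold, and 2, 9 and 2 were higher. Equal upper quartiles made 44.0% of the genes past 2-fold higher ones, and the T cell marker scale 60.0%. Dnmt1 (-0.10) and Tet3 (-0.03) were below 0 under equal upper quartiles. These shifts follow from the scale factors and thresholds themselves.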

Other observations

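Other chromatin regulators were looked up in 6 lists written after the values of the 10 genes had been seen. On the deposited scale no gene of these lists was over 2-fold higher in lung Tregs, against 17.8% of all genes. With the T cell marker median set to 1, 2 sirtuins (Sirt2 and Sirt3) were over 2-fold higher. Of 10 histone deacetylases counted, 3 were over 2-fold lower, with a median log2 ratio of -0.29. These were Hdac2, a class I enzyme (79.5 FPKM in spleen, 28.9 FPKM in lung), and the class II enzymes Hdac7 (28.1 and 12.9 FPKM) and Hdac5 (3.80 and 0.923 FPKM). Hdac1, the close paralogue of Hdac2, was 180.0 and 142 FPKM. All 7 sirtuins, the deacetylases that use NAD, lay within 2-fold on the deposited scale, with a median of 0.19 that turned to -0.24 under TPM.

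Of 7 genes from the families of histone H3 lysine 4 methyltransferases, 3 were over 2-fold lower, with a median of -0.98. These were Setd1a (2.70 and 0.653 FPKM), Kmt2b (4.06 and 1.65 FPKM) and Kmt2c (10.9 and 4.84 FPKM). Under TPM 6 of the 7 were over 2-fold lower, against 26.4% of all genes. Of 5 lysine 9 methyltransferases counted, Suv39h1 was lower (15.5 and 5.73 FPKM), with a median of -0.23, and all 5 lysine 36 methyltransferases lay within 2-fold, with a median of -0.47. Of 13 subunits of the SWI/SNF remodeller, 3 were lower, Smarcd1 (8.94 and 1.99 FPKM), Smarcc1 (12.1 and 5.35 FPKM) and Arid1b (7.25 and 3.55 FPKM), with a median of -0.30. Over all genes counted, 15.5% were over 2-fold lower on the deposited scale.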
